A study of Mus musculus with 6 samples.

Results

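Granulosa cells (GCs) are recognized by a small set of transcription factors and by the signals they pass to the oocyte. Described here are 10 such genes in mouse GCs cultured with or without dihydrotestosterone (DHT), an androgen that aromatase does not turn into estrogen. They were listed by name, with earlier results of these data known. Of these, 8 encode transcription factors (*Foxl2*, *Gata4*, *Gata6*, *Wt1*, *Runx1*, *Runx2*, *Lhx9* and *Emx2*), *Kitl* encodes Kit ligand and *Gja1* encodes the gap junction protein connexin43. Each had 1 row among the 16300 genes of the RNA-seq table, and all 10 were among the 16292 genes tested. RNA-seq was done on 3 control libraries and on 3 DHT libraries, whose cells had 25 nM DHT in the medium for 24 h. All cells came from wild type C57BL/6J mice aged 8 to 9 weeks. GCs were punctured from ovaries on the day of estrus and cultured, and each library was made from the pooled cells of 5 mice, so that single animals cannot be seen. A characteristic of each sample names its group, while the free text of the labels names DHT for all samples and a whole ovary extraction.

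The ovarian follicle is an oocyte wrapped in GCs, which feed it through gap junctions and make estrogen. FOXL2 is a forkhead factor that keeps the granulosa fate, and in mice its loss lets genes of testicular Sertoli cells appear in the ovary. GATA4, GATA6 and WT1 are zinc finger factors, LHX9 and EMX2 are homeodomain factors, and together they act in the formation of the gonad and in its somatic cells. RUNX1 acts beside FOXL2 in fetal GCs, and *Runx1* and *Runx2* are also known as genes that GCs switch on around ovulation. Kit ligand is made by GCs and binds the KIT receptor of oocytes and theca cells. Connexin43 joins GCs to one another, while connexin37 (*Gja4*) joins them to the oocyte.

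The libraries held between 36111177 and 41928585 counted reads, if the common step of the values of a library is taken as 1 read. The values are normalized counts, that is, reads per gene corrected for library size by a size factor. Markers of GCs were abundant, with *Inha* between 32271 and 60095 and *Inhba* between 36157 and 46969 normalized counts, while *Fshr* lay between 135 and 168. *Cyp19a1* was not analysed here. Among the granulosa markers that passed the test, *Inha* and *Cdh2* were lower after DHT and *Nap1l5* and *Hsd17b1* were higher. The calls of *Hsd17b1* and *Nap1l5* were lost without the intensity trend of limma, and that of *Nap1l5* also with the replicate number as a block and without control replicate 2 or any single DHT replicate. The summed level of the granulosa list was 197096 to 207743 in control and 175418 to 191567 in DHT libraries, without overlap. *Inha* had the largest fall of this list, from a mean of 54181 to 35515, while the median log2 fold change of the list was -0.04. The summed theca and stroma list was 137785 to 159187 in control and 126059 to 128659 in DHT libraries, nearly all of it *Aldh1a1*, and none of its 4 genes passed limma's test (3 had an unadjusted p of at most 0.05). Fibroblast and stromal markers summed to 5594 to 6699 against 5947 to 6773, surface epithelium markers to 4157 to 4879 against 3303 to 4564, endothelial markers to 101 to 147 against 112 to 169, and leukocyte markers to 486 to 568 against 374 to 625. Of these last 4 lists, 1 gene passed the test, where 11.2% of all genes did. The macrophage receptor *Csf1r* was lower after DHT (log2 fold change -0.64, a call lost with the block and without control replicate 1, DHT replicate 2 or DHT replicate 3). Oocyte transcripts differed between libraries rather than groups. Their 8 genes summed to 898, 359 and 365 normalized counts in control replicates 1, 2 and 3 and to 634, 44.7 and 674 in DHT replicates 1, 2 and 3. *Zp3*, which encodes a coat protein of the oocyte, was at 0 in DHT replicate 2 and between 38.1 and 104 elsewhere. The part of these differences in the results below was not tested. The fold changes of the 10 genes were computed again without each library.

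**Figure D1:**
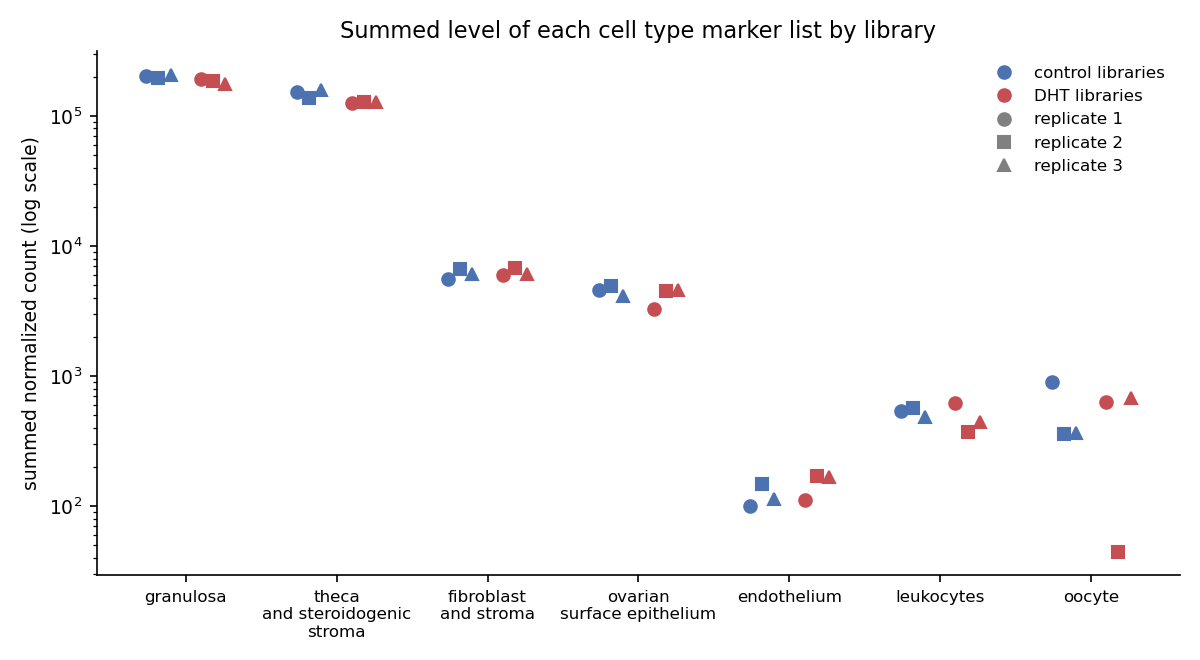
Summed normalized count of each cell type marker list (log scale) in the 3 control (blue) and 3 DHT (red) libraries, with the replicate given by the symbol. The granulosa list has the highest sum but also the most genes (13 tested, against 4 of the theca and stroma list), so that the sums do not rank cell types. The oocyte list in DHT replicate 2 sits at 44.7, below the 359 to 898 of the control libraries.

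DHT treatment was followed by a lower level of *Kitl* and a higher level of *Runx1*, and by smaller decreases of *Emx2*, *Gata4* and *Foxl2*. *Gata6*, *Wt1*, *Runx2*, *Lhx9* and *Gja1* did not pass the test. Thus, 5 of the 10 genes (4 lower and 1 higher) passed limma's test at an adjusted p (Benjamini-Hochberg, over all genes tested) no higher than 0.05. Over all 16292 genes, 11.2% passed, 4.66% lower and 6.52% higher. The count of 5 changed with the libraries and the model. It was 2 without control replicate 2 or any single DHT replicate, 3 without control replicate 1, 6 without control replicate 3, 3 with the replicate number as a block and 1 without the intensity trend of the variance. The 5 genes were also the ones whose groups did not overlap (4 with every DHT library below every control library and 1 with every DHT library above), where 30.6% of all genes had groups without overlap, 14.7% lower and 15.9% higher. None of the 10 genes also reached the study's fold limit, an absolute log2 fold change above 1, which 1.31% of all genes passed together with the adjusted p. The median log2 fold change was -0.13 for the 10 genes and -0.01 for all genes. With 3 libraries a group, the p-values rest on the spread between pools of mice, which limma takes in part from other genes of similar level.

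**Figure D2:**
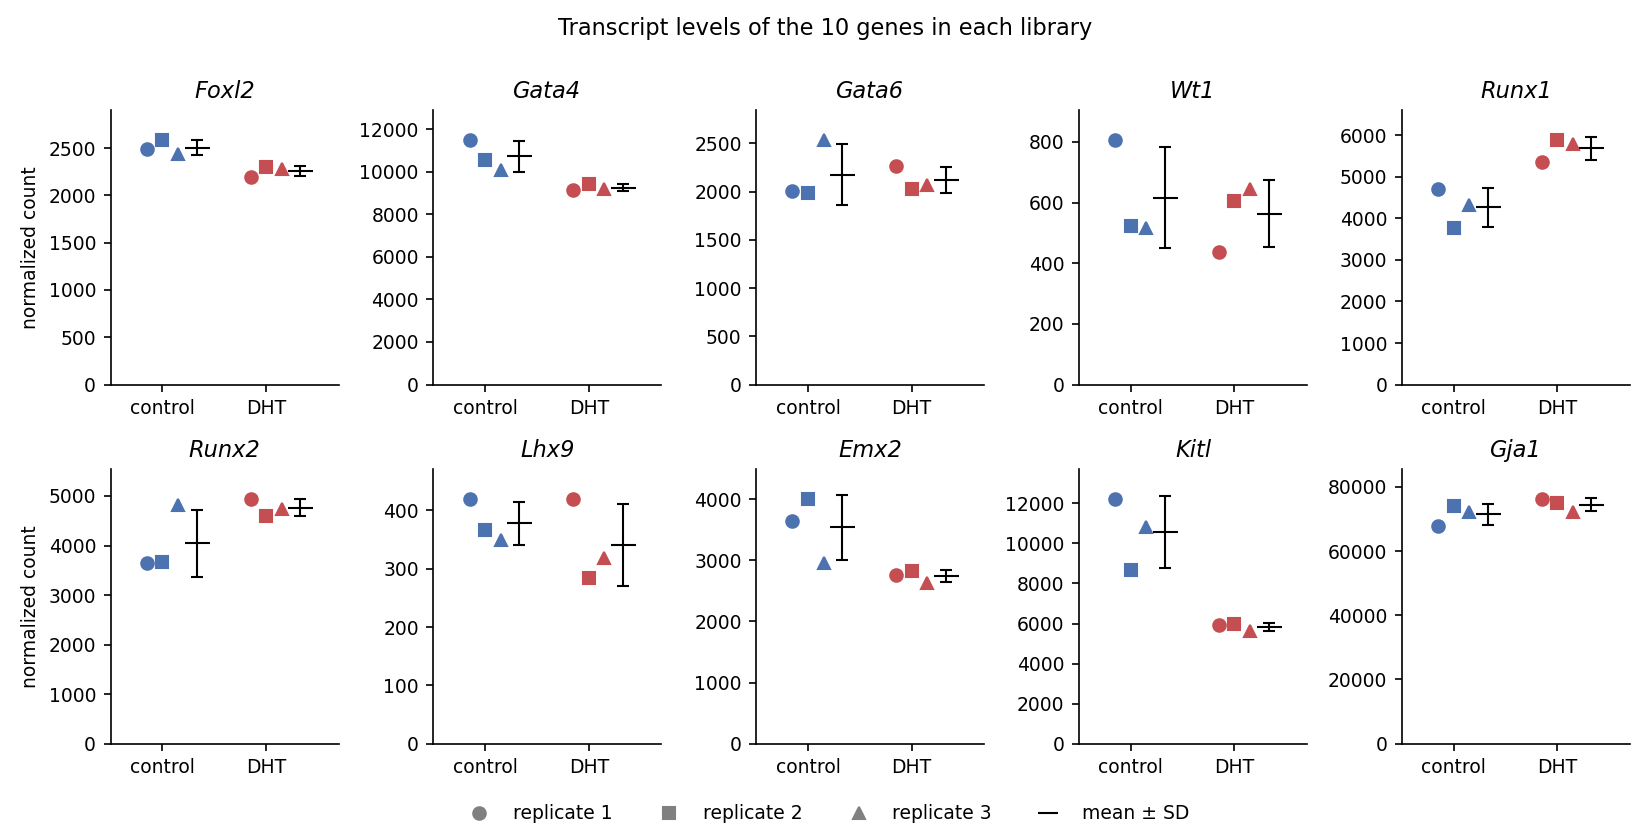
Normalized count of each gene (linear scale from 0, a scale of its own for each gene) in the control (blue) and DHT (red) libraries, with the mean and SD beside them (n = 3 each). The DHT libraries lie apart from the control libraries for *Foxl2*, *Gata4*, *Runx1*, *Emx2* and *Kitl*, and the groups overlap for the other 5 genes.

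*Kitl* (ENSMUSG00000019966) had the largest difference of the 10 genes. It lies on the plus strand at chr10:100015630-100100416 of GRCm38, with 11 separate exonic stretches in the GENCODE annotation. Its normalized count was 12229, 8659 and 10840 in control replicates 1, 2 and 3 and 5925, 5952 and 5603 in DHT replicates 1, 2 and 3. Every DHT library lay below the lowest control library, and the DHT libraries lay closer to one another than the control libraries did. The mean fell by 44.9%, from 10576 ± 1800 to 5827 ± 194 (SD, n = 3). The log2 fold change was -0.85 ± 0.10 (SE), with a 95% interval of -1.08 to -0.61 and a limma adjusted p of 0.0012. It ranged from -0.98 to -0.73 over 14 other ways of processing the data, and *Kitl* passed the test in all 14, with adjusted p-values of 0.0002 to 0.033. In bulk RNA, fewer cells that express a gene and less of its RNA in each cell cannot be told apart.

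The sequence just before the start of *Kitl* is shown because this gene had the largest difference. The start is that of RefSeq (GRCm38.p6), which lies downstream of the first base of the gene in GENCODE given above, so that the stretch is inside the gene by GENCODE. The 30 bases before the RefSeq start, at chr10:100015791-100015820 on the plus strand, hold the letters TATAAA (in capitals), the motif of a TATA box, from position -25.
Kitl: agctgTATAAAaagcgctggcggcgcagca

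Of the Runt family, *Runx1* passed the test and *Runx2* did not. *Runx1* (ENSMUSG00000022952, chr16:92601466-92826149, minus strand) was the 1 gene of the 10 that passed the test upward. Its normalized counts were 4696, 3768 and 4323 in the control and 5363, 5894 and 5797 in the DHT libraries, in the order of the replicates. All DHT libraries lay above the highest control library. The mean rose from 4263 ± 467 to 5685 ± 283, a change of 33.4%, and the log2 fold change was 0.42 ± 0.07 (95% interval 0.25 to 0.59, limma adjusted p = 0.0077). The call held in 13 of the 14 alternatives and was lost without the intensity trend of limma (adjusted p = 0.074). *Runx2* (ENSMUSG00000039153, chr17:44495987-44814797, minus strand) was at 3646, 3660 and 4826 in control and at 4944, 4598 and 4744 in DHT libraries. Control replicate 3 lay within the range of the DHT libraries, and the other controls lay below it. The log2 fold change of *Runx2* was 0.25 ± 0.10, with an interval of 0.03 to 0.47 and an adjusted p of 0.15 by limma. Without control replicate 3 it was 0.38 with an adjusted p of 0.0007, while in the other 13 alternatives the adjusted p lay above 0.05.

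Because the paralogs were counted in the same libraries, their ratio does not depend on the size factors. *Runx1* to *Runx2* was 1.29, 1.03 and 0.90 in the control libraries and 1.08, 1.28 and 1.22 in the DHT libraries, and the groups overlapped. The log2 ratio differed by 0.17 between groups (exact permutation test, two-sided, p = 0.5), and by 0.05 to 0.31 without single libraries. The smallest p that 3 libraries against 3 allow is 0.1, so that this test could not pass 0.05 and does not show that the 2 genes moved alike.

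The sequences before the annotated starts of *Runx1* are printed since it was the 1 gene that passed upward, and it has 2 starts in RefSeq. The first stretch lies at chr16:92826150-92826324 and the second at chr16:92697330-92697579, both read on the minus strand of GRCm38.p6. The first runs from position -250 to -76 only, since GENCODE lists the bases between it and the RefSeq start as exon and these are not printed, while the second runs from -250 to -1. Neither holds any of the searched motifs, so that all letters are in lower case.
Runx1 distal start: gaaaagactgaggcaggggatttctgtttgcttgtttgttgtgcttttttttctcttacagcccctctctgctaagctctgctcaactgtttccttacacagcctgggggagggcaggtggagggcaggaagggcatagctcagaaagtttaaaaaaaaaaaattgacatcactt
Runx1 proximal start: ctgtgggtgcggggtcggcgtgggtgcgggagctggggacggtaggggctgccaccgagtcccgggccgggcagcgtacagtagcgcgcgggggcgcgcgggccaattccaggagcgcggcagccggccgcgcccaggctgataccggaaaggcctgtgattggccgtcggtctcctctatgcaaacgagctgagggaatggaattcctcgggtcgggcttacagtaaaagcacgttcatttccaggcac

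*Foxl2* (ENSMUSG00000050397, chr9:98955288-98958543, plus strand, 1 exon) was the steadiest of the 10 genes among the control libraries. It was at 2494, 2588 and 2433 normalized counts in control and at 2194, 2301 and 2273 in DHT libraries. The DHT libraries all lay below the lowest control, though the gap between the groups was small. The mean fell by 9.94%, with a log2 fold change of -0.15 ± 0.04 (95% interval -0.24 to -0.06, limma adjusted p = 0.049). The coefficient of variation over replicates was 3.12% in control and 2.46% in DHT libraries, where the median gene had 6.96% in control. *Foxl2* kept its direction in all 14 alternatives and passed the test in 6, with adjusted p-values between 0.035 and 0.14. Of the single libraries, only control replicate 3 could be left out without loss of the call.

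*Gata4* and *Gata6* encode factors that can bind the same sites, and *Gata4* passed the test while *Gata6* did not. *Gata4* (ENSMUSG00000021944, chr14:63198922-63271692, minus strand) was at 11504, 10550 and 10093 in control and at 9122, 9421 and 9205 in DHT libraries. The groups did not overlap, and the DHT libraries lay within a narrow range. The mean fell by 13.7% from 10716 ± 720 to 9249 ± 154, with a log2 fold change of -0.21 ± 0.05 (95% interval -0.32 to -0.10, limma adjusted p = 0.027), and the call held in 8 of 14 alternatives. It was lost when control replicate 2 or any 1 of the DHT replicates was left out (adjusted p between 0.059 and 0.097). *Gata6* (ENSMUSG00000005836) was at 2009, 1981 and 2538 in control and at 2269, 2028 and 2064 in DHT libraries. All DHT libraries lay within the range of the control libraries, and control replicate 3 was the highest library. The log2 fold change was -0.03 ± 0.09, with an interval of -0.24 to 0.18 (limma adjusted p = 0.88), and its sign turned to 0.09 without control replicate 3. The ratio of *Gata4* to *Gata6* was 5.73, 5.33 and 3.98 in control and 4.02, 4.65 and 4.46 in DHT libraries. These ranges overlapped as well, and the log2 ratio differed by -0.18 (exact permutation test, two-sided, p = 0.4, where 0.1 is the smallest possible), and by -0.34 to -0.08 without single libraries.

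The homeodomain genes *Emx2* and *Lhx9* and the zinc finger gene *Wt1* are needed early in the gonad, and of these *Emx2* passed the test. *Emx2* (ENSMUSG00000043969, chr19:59458372-59465357, plus strand) was at 3648, 4009 and 2961 in control and at 2767, 2826 and 2629 in DHT libraries. Every DHT library lay below every control, and control replicate 3 came closest to them. The mean fell by 22.6% and the log2 fold change was -0.36 ± 0.09 (95% interval -0.57 to -0.14, limma adjusted p = 0.043). The call held in 8 of 14 alternatives. Leaving out a single library gave log2 fold changes from -0.48 to -0.26, and without control replicate 3 the adjusted p was 0.0007, while without any other single library it lay above 0.05.

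*Lhx9* (ENSMUSG00000019230, chr1:138825186-138848577, minus strand) was the least abundant of the 10 genes. It was at 420, 366 and 348 in control and at 420, 284 and 319 in DHT libraries, and the highest values of the 2 groups differed by less than 1 normalized count. The log2 fold change was -0.16 ± 0.14 (95% interval -0.48 to 0.15, limma adjusted p = 0.52), and it was -0.32 without DHT replicate 1 and -0.04 without DHT replicate 2. *Wt1* (ENSMUSG00000016458, chr2:105126529-105173616, plus strand) was at 807, 522 and 516 in control and at 437, 607 and 646 in DHT libraries. It had the largest spread of the 10 genes in control, with a coefficient of variation of 27.1%, and the highest and the lowest library were both replicate 1. Its log2 fold change was -0.11 ± 0.19 (95% interval -0.55 to 0.32, limma adjusted p = 0.76) and turned to 0.10 without control replicate 1 and to 0.06 without DHT replicate 1. Surface epithelium also expresses *Wt1*. Of its 9 marker genes, 6 were lowest in DHT replicate 1 of the 6 libraries, as *Wt1* was, and 2 of these, *Krt8* and *Krt18*, also had control replicate 1 as the highest control. *Krt8* was at 2565, 2428 and 2216 in control and at 1844, 2205 and 2226 in DHT libraries, and *Krt18* at 1310, 1283 and 1238 against 925, 1165 and 1123. The mesothelial marker *Upk3b* was at 145, 269 and 161 against 97.9, 218 and 233, with control replicate 1 the lowest control. These 3 genes were named after their values were seen, and the part of these cells in the level of *Wt1* was not tested.

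*Gja1* (ENSMUSG00000050953, chr10:56377330-56402513, plus strand) was the most abundant of the 10 genes and did not pass the test. Its normalized counts were 67758, 74161 and 72215 in control and 76268, 74856 and 72124 in DHT libraries. DHT replicate 3 lay below 2 of the control libraries, so that the groups overlapped. The log2 fold change was 0.06 ± 0.05 with an interval of -0.06 to 0.18 (limma adjusted p = 0.51), and quantile normalization turned its sign, to -0.13 with an adjusted p of 0.099. The interval runs from 0.96 to 1.13 of the control level, where that of *Kitl* runs from 0.47 to 0.65.

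The 250 bases before the start of *Gja1*, at chr10:56377050-56377299 on the plus strand (RefSeq, GRCm38.p6), are shown as the counterpart of *Kitl*. The capitals mark a match to the GATA motif AGATAA on the other strand, which begins at position -135.
Gja1: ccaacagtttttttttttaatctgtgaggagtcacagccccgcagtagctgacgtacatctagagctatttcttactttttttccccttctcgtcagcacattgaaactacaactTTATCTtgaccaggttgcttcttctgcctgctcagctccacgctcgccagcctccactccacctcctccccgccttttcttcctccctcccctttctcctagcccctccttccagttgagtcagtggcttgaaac

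**Figure D3:**
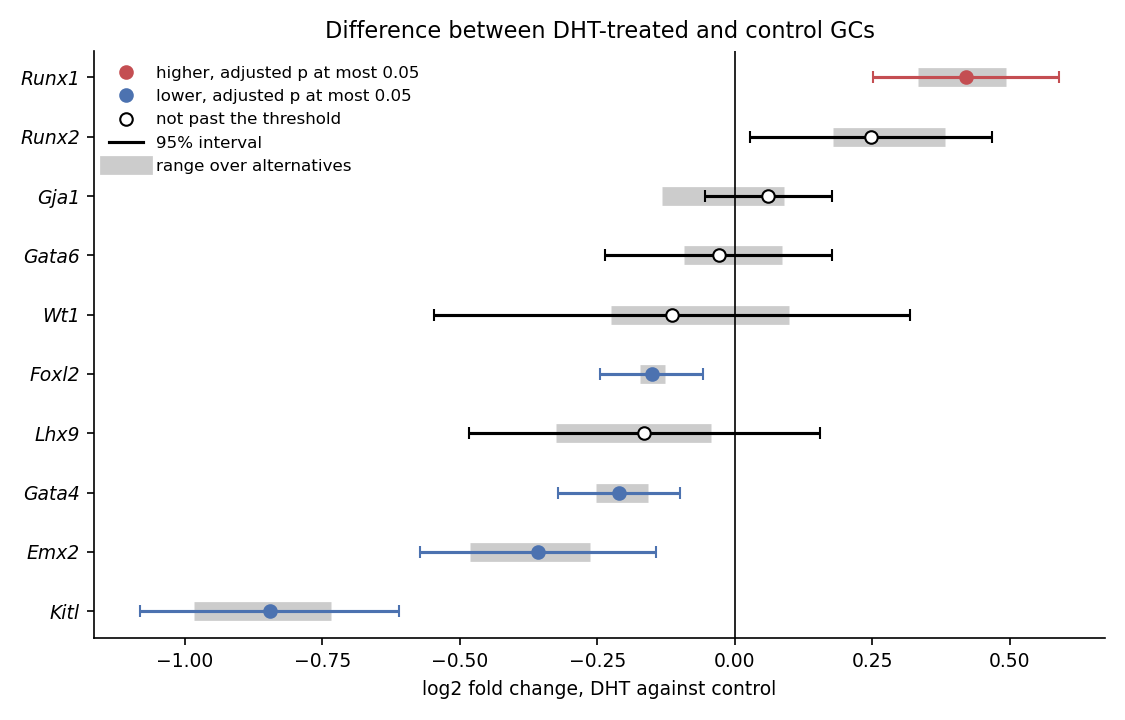
Log2 fold change of each gene, DHT against control, with its 95% interval (n = 3 against 3) and, as a grey bar, the range over the fit and its 14 alternatives. The interval of *Kitl* ends at -0.61, which lies below the whole interval of every other gene, and the bars of *Gja1*, *Gata6* and *Wt1* cross 0.

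Windows of 250 bases before RefSeq starts were examined for 7 of the 10 genes, 8 windows in all. They were searched on both strands, beside the windows of all 32851 starts of 27025 genes, for 6 motifs. The androgen receptor full site, AGAACA and TGTTCT with any 3 bases between them, was in 3 of all windows (0.00913%) and in no window of the 7 genes. A single arm of it, AGAACA, which is also counted inside full sites, was in 16.1% of all windows and in none of these. The RUNX motif TGTGGT was in 14.0% of all windows and in that of *Runx2*, at position -80. The GATA motif AGATAA was in 9.99% of all windows and in that of *Gja1*, and the TATA motif TATAAA in 12.4% and in that of *Kitl*. The forkhead motif TGTTTAC was in 3.17% of all windows and in none of these 8. These are matches of letters in a short window and say nothing of binding.

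The order of the 10 genes by level was the same in both groups. Per kb of exon, the control means ran from 6959 normalized counts for *Gja1* through 2745 for *Gata4*, 1789 for *Kitl*, 1179 for *Emx2*, 769 for *Foxl2*, 458 for *Runx2*, 354 for *Runx1* and 334 for *Gata6* to 99.3 for *Wt1* and 39.8 for *Lhx9*. The median gene was at 163 per kb in control, so that 8 of the 10 genes lay above it. Between neighbours in this order, the ranges over the control libraries overlapped for *Runx1* (313 to 391 per kb) and *Gata6* (304 to 390 per kb) but for no other pair. In the DHT libraries no neighbours overlapped, but *Kitl* (948 to 1007 per kb) came close to *Emx2* (876 to 942 per kb), where in control they were at 1465 to 2069 and 986 to 1335 per kb. *Kitl* went from 1789 to 986 per kb, that is from percentile 94.1 to 87.65 of all genes with a length, and *Runx1* from percentile 67.8 to 74.2. *Gja1* stayed near percentile 98.8 in both groups.

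**Figure D4:**
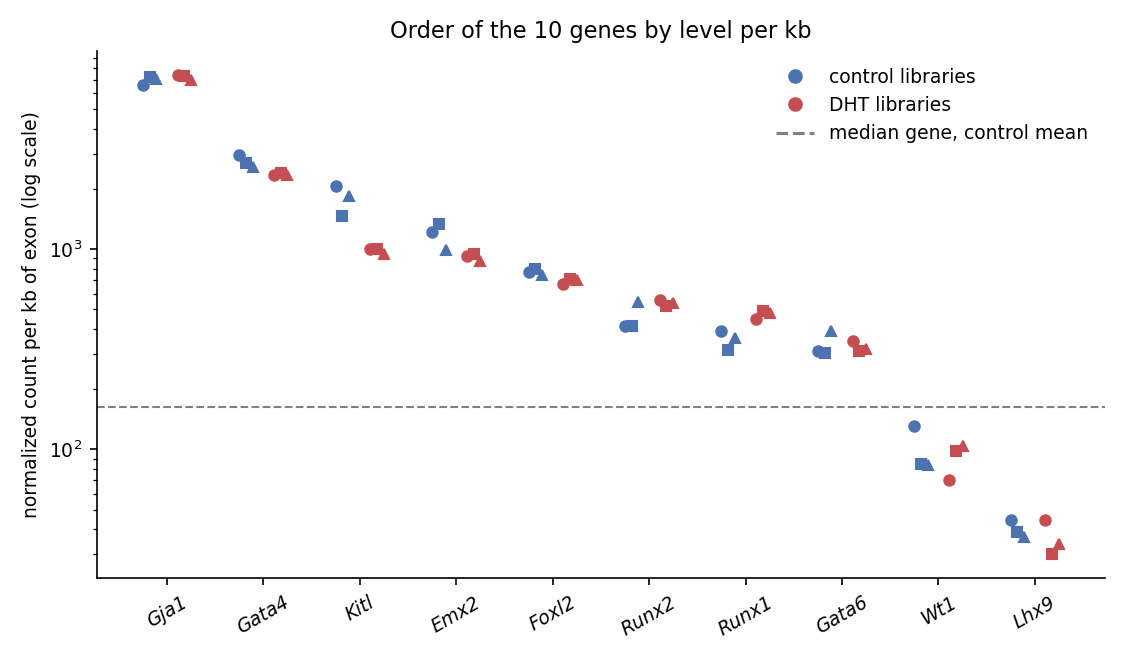
Normalized count per kb of exon (log scale) of the 10 genes in each control (blue) and DHT (red) library, ordered by control mean, with symbols for replicates 1 to 3 as in the other plots. *Wt1* and *Lhx9* lie under the median gene (dashed, 163 per kb), and *Kitl* moves down toward *Emx2* after DHT.

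For 5 of the genes, exons overlap a transcript of the other strand, and reads of the 2 strands cannot be told apart where the strand setting of the counting is not given in the sources used here. *Foxl2os* shares 12 exonic bases with *Foxl2* and was as abundant as it, at 2714, 2727 and 2581 in control and 2484, 2364 and 2217 normalized counts in DHT libraries. It fell like its neighbour, with a log2 fold change of -0.18 ± 0.05 (limma adjusted p = 0.047). *Emx2os* shares 264 bases (8.79% of the exonic length of *Emx2*) and also fell, with values of 610, 621 and 614 in control and 544, 523 and 498 in DHT libraries (log2 fold change -0.24 ± 0.06, limma adjusted p = 0.037). In both pairs the antisense transcript and the gene were lower in all DHT libraries. *Gm26626*, which shares 106 bases with *Runx1*, was low, at 23.2 to 28.7 in control and 36.2 to 45.7 in DHT libraries, and did not pass the test (log2 fold change 0.65, adjusted p = 0.083 by limma). *Runx2os1* (519 shared bases) stayed between 15.3 and 28.3 and 1010001N08Rik (93 shared bases with *Gata6*) between 83.6 and 123 in the 6 libraries, and neither passed.

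To place these genes among their partners, 5 lists of related genes were counted. Of their 65 tested genes, 8 were higher and 8 lower at an adjusted p of at most 0.05 (24.6%, where 11.2% of all genes passed), with a median log2 fold change of 0.03. The lists were drawn up with earlier results of these data known.

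Among 20 other gonadal transcription factors and cofactors, 3 rose, 4 fell and 13 did not pass, with a median log2 fold change of 0.01. Of all genes, 6.52% rose and 4.66% fell past the threshold. *Gata3*, a GATA factor better known in lymphocytes, had the largest change of this list. It went from 420, 388 and 426 to 134, 155 and 114 normalized counts, a log2 fold change of -1.62 ± 0.12 (limma adjusted p = 0.0001). Among the GATA genes measured, it was thus lower by far more than *Gata4*, while *Gata6* did not pass. The forkhead genes moved in both directions, with *Foxo3* higher (log2 fold change 0.54 ± 0.05, limma adjusted p = 0.0002) and *Foxo1* lower (-0.22 ± 0.05, limma adjusted p = 0.030, past in 7 of 14 alternatives), as *Foxl2* was. FOXO1 and FOXO3 are factors that phosphoinositide signalling keeps out of the nucleus. *Esr2*, the estrogen receptor of GCs, fell by 0.36 on the log2 scale (limma adjusted p = 0.0015). The corepressors *Tle1* and *Tle3*, which bind RUNX and forkhead factors, went opposite ways, by 0.43 and -0.36. *Cbfb*, the partner that RUNX proteins need to bind DNA, rose from 4916, 5149 and 5580 to 6041, 5892 and 5793 (log2 fold change 0.18 ± 0.05, limma adjusted p = 0.046). So *Runx1* and *Cbfb* were both higher in all DHT libraries, though *Cbfb* passed in 7 of 14 alternatives. Of the single libraries, only control replicate 3 could be left out without loss of the calls of *Foxo1* and *Cbfb*. The GATA cofactors *Zfpm1* and *Zfpm2* had log2 fold changes of 0.06 and -0.01, and the nuclear receptors *Nr5a1* and *Nr5a2* of 0.07 and -0.05, and none of these 4 passed. *Runx3* and *Nr0b1* were not analysed here.

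Genes of Sertoli cells were set beside *Foxl2*, which keeps the Sertoli factor *Sox9* silent in the ovary. None of the 6 tested passed by limma, where 11.2% of all genes did (3 of the 6 had an unadjusted p of at most 0.05, and *Dhh* passed without control replicate 3). Their sum was 1260 to 1404 normalized counts in control and 1387 to 1429 in DHT libraries. *Dhh*, a hedgehog ligand, was the largest part (means 674 and 826). *Sox9*, the factor that drives the Sertoli fate, was at 151, 135 and 148 in control and at 138, 131 and 137 in DHT libraries, a log2 fold change of -0.10 ± 0.11 (limma adjusted p = 0.65). *Sox8* was at 122 to 140 in control and 98.2 to 116 in DHT libraries, lower in each, but did not pass (log2 fold change -0.32 ± 0.13, limma adjusted p = 0.16). *Dmrt1* was not analysed here.

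Kit ligand acts through the receptor KIT and the proteins behind it. *Kit* was at 271, 496 and 727 in control and at 732, 499 and 596 in DHT libraries. These values spread widely within groups and overlapped, with a log2 fold change of 0.38 ± 0.30 (95% interval -0.30 to 1.06, limma adjusted p = 0.48). It was 0.002 without control replicate 1 and 0.71 without control replicate 3. Over the 16 tested genes of the KIT pathway, 1 was higher and 1 lower, where 6.52% and 4.66% of all genes were, with a median log2 fold change of 0.00. The kinase *Fyn* rose (0.24 ± 0.05, limma adjusted p = 0.0091, and 0.072 without the intensity trend) and the adaptor *Gab2* fell (-0.21 ± 0.06, limma adjusted p = 0.046), and *Gab2* passed in 7 of 14 alternatives and lost its call without any single library other than control replicate 2. *Adam17*, a protease of the cell surface, had a log2 fold change of -0.07 and did not pass.

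The other channel genes were far lower than *Gja1*. *Gja4* was at 19.2 and *Gjc1* (connexin45) at 21.8 normalized counts per kb in control, where *Gja1* was at 6959. *Gja4* was at 38.6, 24.2 and 34.3 in control and at 37.2, 22.9 and 51.1 in DHT libraries, and *Gjc1* at 84.1, 101 and 142 against 162, 125 and 106. Both overlapped between groups and neither passed. Of 8 tested connexins, pannexins and scaffold genes, 1 passed, where 11.2% of all genes did. The channel gene *Panx1* went from 1011, 1097 and 1098 to 930, 946 and 935 (log2 fold change -0.19 ± 0.05, limma adjusted p = 0.049). It passed in 6 of 14 alternatives and lost its call without any single library other than control replicate 1. *Tjp1*, whose product ZO-1 anchors connexin43, had a log2 fold change of 0.13 ± 0.04 and did not pass (limma adjusted p = 0.070).

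Since *Runx1* and *Runx2* belong to the ovulatory program, other genes of that program were set beside them. Of 15 tested, 4 were higher, 2 lower and 9 did not pass, where 6.52% of all genes were higher and 4.66% lower. The median log2 fold change of the list was 0.32. *Has2*, which makes the hyaluronan of the expanding cumulus, rose from 273, 569 and 492 to 2396, 1957 and 2008 normalized counts (log2 fold change 2.31 ± 0.23, limma adjusted p = 0.0004). The efflux pump *Abcb1b* rose by 0.95, the cell cycle regulator *Rgcc* by 0.63 and the transcription factor *Cebpb* by 0.32 on the log2 scale (limma adjusted p = 6.8e-05, 0.0031 and 0.0038). Other genes of the program went down. *Pgr*, the progesterone receptor, fell from 25.7 to 31.6 in control to 8.73 to 11.97 normalized counts in DHT libraries (log2 fold change -1.42 ± 0.27, limma adjusted p = 0.010, past in all 13 alternatives that tested it), and the ligand *Btc* fell by 0.63 on the log2 scale (limma adjusted p = 0.037, past in 7 of 14 alternatives and lost without any single library other than DHT replicate 2). *Ptgs2* and *Adamts1*, with log2 fold changes of -0.02 and 0.23, did not pass. Larger changes that did not pass were those of *Lhcgr* (1.38 ± 0.48, limma adjusted p = 0.11) and *Ptx3* (0.65 ± 0.20, limma adjusted p = 0.070).

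**Figure D5:**
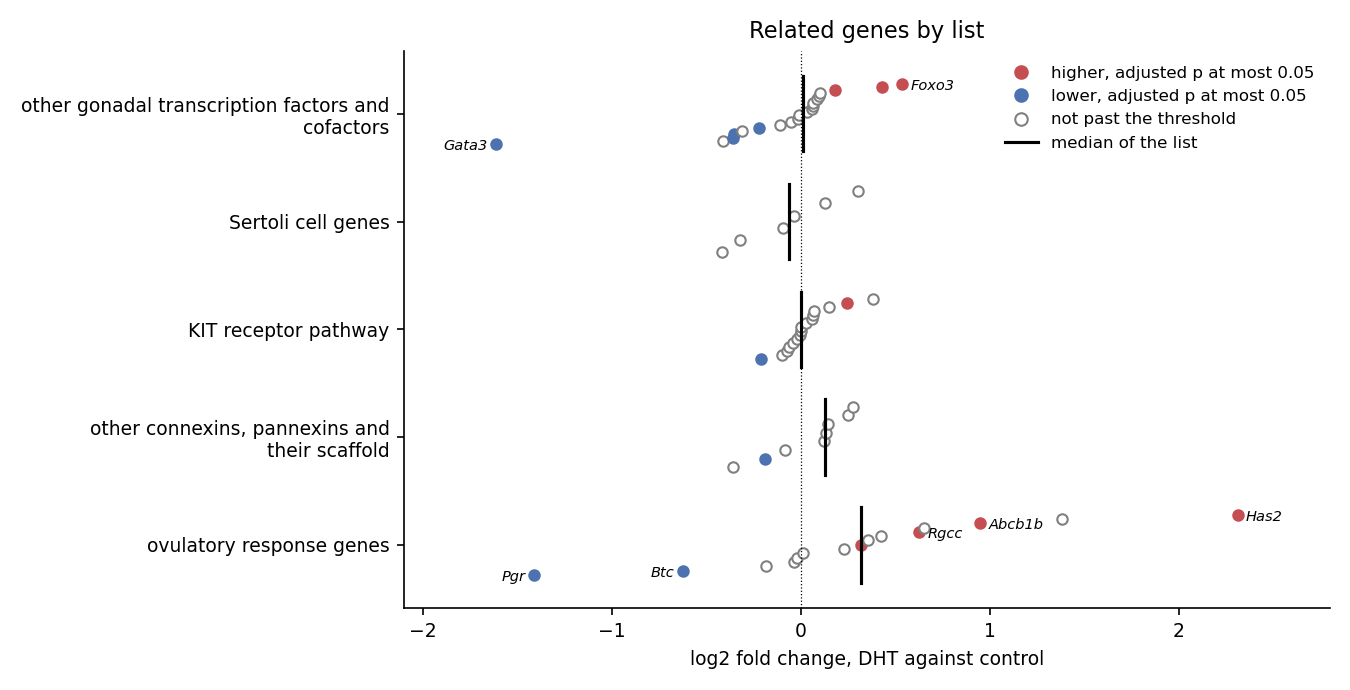
Log2 fold change, DHT against control, of each tested gene of 5 related lists, filled where the adjusted p was at most 0.05, with a black line at the median of the list. *Gata3* at -1.62 and *Has2* at 2.31 lie farthest from 0 among the genes that passed, and no Sertoli cell gene is filled.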

How the data were processed

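RNA was sequenced from 3 control and 3 DHT libraries of mouse GCs, and the groups were taken from the treatment characteristic of the labels. The authors trimmed reads with Trimmomatic 0.36, mapped them to GRCm38 with STAR 2.5.2b and counted unique exonic reads with featureCounts of Subread 1.5.2. The signal deposited by the authors is this count divided by the DESeq2 size factor. Deposited fold changes, p-values and a table of selected genes were not used. The test was limma 3.58.1 (R 4.3.3) on log2(value + 1), with the variance prior following the intensity, and genes whose mean was below 10 were left out. Benjamini-Hochberg adjustment covered all genes tested. The pseudocount understates changes of low genes. The script was checked on simulated data. Positions, exon overlaps and lengths came from GENCODE for GRCm38. Besides the 10 genes, the text gives up to 6 genes past the threshold from each list by size of change, chosen partners and antisense overlaps, and some further values of list genes were named after they were seen. The members, lists and tests were chosen with earlier results of these data known. Alternatives were pseudocounts of 0.5 and 8, no filter, a mean of at least 50, TMM scaling, quantile normalization, no intensity trend, the replicate number as a block and each library left out. A result on 1 marker gene is not reported here.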

Additional observations from a re-analysis of the deposited data

How the results depend on the processing

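*Kitl*, *Runx1*, *Runx2*, *Emx2*, *Gata4*, *Foxl2* and *Lhx9* kept their direction in all 14 alternatives. Of the 10 genes, 5 passed in the fit described above, 1 without the intensity trend (*Kitl*), 4 after TMM scaling and 5 with each other pseudocount, filter and quantile normalization. Single libraries left out gave between 2 and 6, namely 6 without control replicate 3, 3 without control replicate 1 and 2 (*Kitl* and *Runx1*) without any other. Over all genes, 804 passed in place of 1823 without the trend and 937 to 2103 without single libraries, with 968 without DHT replicate 2 and 937 without DHT replicate 3. Past both thresholds were 213 genes, 131 at a mean of at least 50 and 140 (without DHT replicate 3) to 285 without single libraries. The related lists gave 16 genes, 10 without the trend and 11 to 18 without single libraries. The cause of these changes was not tested.

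A block for the replicate number left 990 genes in all and 3 of the 10 genes, *Kitl* (limma adjusted p = 0.0045), *Runx1* (0.034) and *Emx2* (0.032). Libraries with the same number deviated from their group means with correlations of 0.0058, 0.067 and -0.24. With 3 libraries a group, these cannot decide whether a control and a DHT library of the same number came from the same pool of cells. The block cannot move the differences of the paralog ratios, 0.17 and -0.18.

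The sign of *Gja1* turned with quantile normalization (-0.13). Without single libraries, the log2 fold change took both signs, with no call, for *Gata6* (-0.092 to 0.086), *Wt1* (-0.22 to 0.098), *Zfpm2* (-0.091 to 0.077), *Nr5a2* (-0.12 to 0.037), *Nr5a1* (-0.0022 to 0.12) and *Gja4* (-0.12 to 0.45). Count models of edgeR and DESeq2, planned as alternatives, were not run. *Pgr* and *Gja4* could not be tested at a mean of at least 50.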
